A study of Mus musculus with 12 samples.

Results

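The comparison described here sets 2 ways of interfering with double-stranded RNA in an allergen response side by side and asks, gene by gene, whether they moved expression by different amounts. It uses 8 of the 12 libraries of a mouse lung RNA-seq study of extract from Dermatophagoides farinae (D.f.), a house dust mite, with 2 libraries in each of 4 groups. The RNase III effect is the log2 fold change from D.f. extract to D.f. extract with RNase III in wild-type mice. The knockout effect is the log2 fold change from wild type to Tlr3 Mavs double knockout, with D.f. extract in both. The difference is the RNase III effect minus the knockout effect, so a positive value means a higher expression change with RNase III than with the knockout.

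All mice were 6 to 8 weeks old, and the lungs were taken 14 to 16 h after treatment. The RNase III set holds wild-type mice of the B6 background that received D.f. extract without RNase III (replicates 3 and 4) or with it (replicates 5 and 6). In the knockout set, wild-type mice (replicates 3 and 4) and mice lacking Tlr3 and Mavs (replicates 5 and 6), also labelled B6, received D.f. extract. The other 4 libraries, from mice given phosphate-buffered saline (PBS), are shown as levels only: 2 of wild type in the first set, and 1 of wild type and 1 of knockout in the second. No group received RNase III without D.f., and how the knockout alleles were made is not given in the sources used here. Each intervention was measured in its own set with its own D.f. group, so the difference between interventions and any difference between sets in how an extract acted cannot be told apart.

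Double-stranded RNA is a sign of viral infection that is sensed in endosomes by the receptor Tlr3 and in the cytosol by Ddx58 (RIG-I) and Ifih1 (MDA5), which signal through the mitochondrial adaptor Mavs. Both routes activate interferon regulatory factors and NF-kB, and so induce type I interferon, interferon-stimulated genes and inflammatory cytokines. RNase III is a bacterial endonuclease that cuts double-stranded RNA. It acts on the ligand in the extract, whereas the double knockout removes a sensor and an adaptor from the host.

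Between 17095044 and 25714074 reads per library were assigned to genes, and a level equal to 3 reads lay between 0.122 and 0.174 CPM (reads scaled by library size), a limit that covers counting error only. The tables share 21627 gene symbols, of which 14410 had enough reads in both sets to be tested. The lung markers Sftpc (2530 to 7520 CPM), Sftpb, Ager, Cdh5 and Foxj1 were present in all 8 libraries, while the club cell gene Scgb1a1 spanned 1030 to 19500 CPM, and the summed club and goblet list lay at 17700 to 24700 CPM in the RNase III set and at 3050 to 3950 CPM in the knockout set. The pair of knockout libraries stood apart from each other. The serum amyloid gene Saa3 was at 16.6 CPM in knockout replicate 5 and at 355 CPM in replicate 6, the summed neutrophil genes were at 521 and 1620 CPM, and the summed interferon-gamma-associated genes at 4780 and 2150 CPM. The SD of the log2 ratio between replicates across genes was 0.42 for that pair, against 0.23 to 0.31 for the other 3 pairs.

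The targeted genes matched the genotype labels. Mavs was at 28.9 and 30.4 CPM with D.f., 32.2 and 31.4 CPM with RNase III, 33.1 and 31.2 CPM in wild type with D.f., and 2.59 and 2.28 CPM in the knockout. Tlr3 was at 101 and 115 CPM with D.f., 42.4 and 41.1 CPM with RNase III, 151 and 109 CPM in wild type with D.f., and 14.4 and 9.76 CPM in the knockout. Both genes were lower in the knockout libraries than in every wild-type library, and Tlr3, itself an interferon-inducible gene, was also lower with RNase III.

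The difference between the effects was called for 23 of 14410 genes (0.160%), 14 higher (0.0972%) and 9 lower (0.0625%), by edgeR's quasi-likelihood test with a Benjamini-Hochberg adjusted p below 0.05. In the same fit the RNase III effect was called for 2481 genes (17.2%), of which 1034 rose (7.18%) and 1447 fell (10%). The knockout effect was called for 849 genes (5.89%), of which 267 rose (1.85%) and 582 fell (4.04%). The median difference over all genes tested was -0.02, and the median width of its 95% interval to either side was 0.48 on the log2 scale. An unadjusted p below 0.05 was seen for 2271 genes (15.8%), and an adjusted p below 0.1 for 231 genes.

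The 23 calls are few and rest on single libraries to different degrees. A fit that leaves out a library also has fewer residual degrees of freedom and another estimate of spread. Its number of calls therefore does not measure the part of that library alone. Without D.f. replicate 3 or 4 the number of calls was 4 or 1, without either RNase III replicate 1, without either wild-type D.f. replicate 3, without knockout replicate 5 it was 979, and without knockout replicate 6 it was 110. DESeq2 called 523 genes (3.70%), among them all 23, and a fit of all 12 libraries called only Mavs. Mavs was called in each of these settings, and the other 22 in 2 to 4 of the 8 fits that left out a library. All 23 kept the direction of their difference in every setting.

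**Figure D1:**
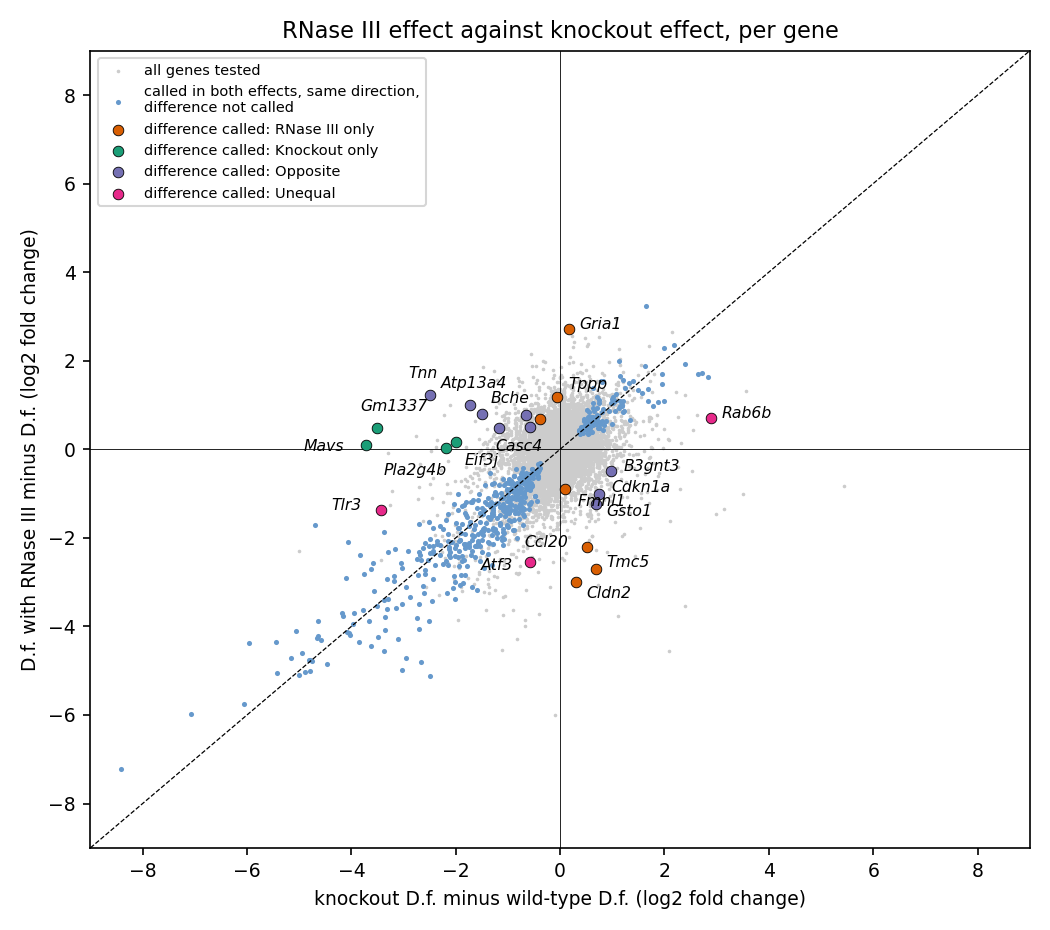
RNase III effect (vertical axis, log2 fold change) against knockout effect (horizontal axis, log2 fold change) for the 14410 genes tested. Grey points are all genes, blue points the 537 genes called in both effects in the same direction with no called difference, and large points the 23 genes with a called difference, coloured by class. The dashed line marks equal effects. Most blue points lie along it in the lower left. Gria1, Cldn2, Tmc5 and Ccl20 had no called knockout effect, and Mavs and Gm1337 no called RNase III effect.

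Before the genes that differed, the genes that moved alike give the scale. Of 558 genes called in both effects, 540 had the same direction, 425 falling and 115 rising. They make up 21.8% of the RNase III calls and 63.6% of the knockout calls. For 537 of them the difference was not called, and for 279 its 95% interval lay within 1 log2 unit of 0. The other 258 have wider intervals, so a 2-fold difference is not excluded for them. Across all genes tested, Pearson's r of the effects was 0.59 (Spearman's rho 0.38). Across the genes called in both it was 0.91, but these genes were picked by the same effects. That choice leaves out small effects and so favours a high r. These are correlations across genes, which are not independent replicates, and the effects share no library.

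Isg15, a ubiquitin-like antiviral protein, was at 447 and 464 CPM with D.f. and at 19.1 and 18.7 CPM with RNase III. Its knockout-set levels were 278 and 213 CPM in wild type and at 10.2 and 5.83 CPM in the knockout. The RNase III effect was -4.59 ± 0.22 (SE) and the knockout effect -4.94 ± 0.23, with a difference of 0.35 (95% interval -0.37 to 1.07, adjusted p = 0.64). Cxcl10, a chemokine that draws in activated T cells and NK cells, was at 452 and 546 CPM with D.f. and 8.88 and 9.68 CPM with RNase III, and at 397 and 199 CPM in wild type and 2.69 and 6.27 CPM in the knockout. Its effects were -5.75 ± 0.38 and -6.05 ± 0.40, and the interval of their difference, -0.96 to 1.56, is wider than that of Isg15. In both genes the 4 libraries with an intervention lay closer to the PBS libraries (2.92 to 28.9 CPM for Isg15 and 1.49 to 3.69 CPM for Cxcl10) than to any library with D.f. alone.

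Among genes called in both effects in the same direction with no called difference, those with the narrowest difference intervals lay outside the interferon programme. They were picked by the width of the interval and not by its distance from 0. Asking for no called difference also leaves out genes whose effects were clearly apart. Sepw1, a small selenoprotein, fell, with an RNase III effect of -1.17, a knockout effect of -0.99 and a difference interval of -0.45 to 0.09. The rises of Fam129a (0.45 and 0.48), Snx13, a sorting nexin (0.43 and 0.37), and Fam117b (0.53 and 0.45) were small, and all 3 differences had intervals within 0.35 of 0. Dnahc6, an axonemal dynein heavy chain of cilia, rose by 0.58 with RNase III and by 1.00 in the knockout, with an interval of -0.69 to -0.15, which does not hold 0, and an adjusted p of 0.16.

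Promoters of the genes that fell in both effects are shown because a sequence was found in 18.4% of them. It was in none of the promoters available for genes with a called difference. These number 3 and 2 for falls and rises with RNase III only, 1 for knockout only, 7 for opposite and 3 for unequal effects. They are too few to set against the 3.91% of all tested genes with a promoter. The windows run from 250 bases before to 50 bases after the annotated start in RefSeq GRCm38.p6, on the strand of the gene, and capitals mark the core of the interferon-stimulated response element (GAAA, any 2 bases, then GAAA), which interferon regulatory factors and the STAT complex ISGF3 bind. The Isg15 window is chr4:156200769-156201068 on the minus strand, with 3 overlapping matches, and the Cxcl10 window chr5:92348840-92349139 on the minus strand, with 1 match. Ccl20 (chr1:83116516-83116815, plus strand) and Atf3 (chr1:191183284-191183583, minus strand), both with a called difference, hold no match.
Isg15: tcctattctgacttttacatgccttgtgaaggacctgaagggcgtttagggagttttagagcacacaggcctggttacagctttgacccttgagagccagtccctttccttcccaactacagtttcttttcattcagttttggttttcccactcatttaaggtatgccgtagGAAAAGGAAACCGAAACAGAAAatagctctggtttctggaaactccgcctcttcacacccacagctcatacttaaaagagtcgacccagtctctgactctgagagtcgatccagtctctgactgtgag
Cxcl10: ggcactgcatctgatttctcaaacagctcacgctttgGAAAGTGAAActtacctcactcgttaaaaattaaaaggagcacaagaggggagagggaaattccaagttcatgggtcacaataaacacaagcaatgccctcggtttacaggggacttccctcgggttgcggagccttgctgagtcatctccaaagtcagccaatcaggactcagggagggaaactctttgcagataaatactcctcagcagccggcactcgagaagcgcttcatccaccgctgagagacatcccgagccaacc
Ccl20: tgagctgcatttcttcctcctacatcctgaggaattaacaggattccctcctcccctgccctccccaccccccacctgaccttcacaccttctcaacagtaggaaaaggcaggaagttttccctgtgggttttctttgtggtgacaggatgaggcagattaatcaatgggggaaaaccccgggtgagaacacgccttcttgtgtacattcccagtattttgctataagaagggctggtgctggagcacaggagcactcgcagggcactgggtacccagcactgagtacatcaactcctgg
Atf3: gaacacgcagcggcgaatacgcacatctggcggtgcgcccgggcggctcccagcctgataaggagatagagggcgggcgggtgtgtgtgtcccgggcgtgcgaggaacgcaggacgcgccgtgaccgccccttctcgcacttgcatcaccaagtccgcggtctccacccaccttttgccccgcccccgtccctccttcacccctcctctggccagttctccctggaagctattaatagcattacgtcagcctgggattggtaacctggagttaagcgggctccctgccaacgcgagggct

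Searched on both strands, with overlapping matches allowed, this core was in 54 of the 293 promoters available for genes that fell in both effects (18.4%). Over all tested genes with a promoter in the table it was in 397 of 10151 (3.91%). None of the 78 promoters of genes that rose in both held it. The kappa B sequence (GGGA, any base, then TTTCC), bound by NF-kB, was in 7 of the 293 promoters (2.39%) and in 55 of all 10151 (0.542%). Among genes with a called difference, Tnn held it, as 1 of 7 promoters of genes with opposite effects. Tlr3 held it as 1 of 3 of genes with unequal effects, and none of the other called genes with a promoter did. These are too few to read as a share. A match describes these letters in this window only.

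Among genes that depended on RNase III, 4 fell with RNase III and showed no called knockout effect: the chemokine gene Ccl20, the tight junction gene Cldn2, the transmembrane channel-like gene Tmc5 and the formin gene Fmnl1. Ccl20, the ligand of Ccr6 that airway epithelium makes to attract dendritic cells and Th17 cells, was at 5.81 and 5.31 CPM with D.f. and at 0.962 and 1.42 CPM with RNase III. Levels of the other set were 1.38 and 1.34 CPM in wild type and 1.81 and 2.09 CPM in the knockout. Only the D.f. libraries of the RNase III set were high, and the wild-type D.f. libraries of the other set lay below their own PBS library at 2.13 CPM. The RNase III effect was -2.21 ± 0.26, the knockout effect 0.52 ± 0.27 (95% interval -0.10 to 1.14), and the difference -2.74 ± 0.37 (adjusted p = 0.044).

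Cldn2, a claudin that forms cation- and water-permeable pores in leaky epithelia, was at 6.22 and 5.35 CPM with D.f. and 0.622 and 0.820 CPM with RNase III. Its levels were 1.71 and 1.92 CPM in wild type with D.f. and 1.76 and 2.67 CPM in the knockout, and these groups overlap. The RNase III effect was -2.99 ± 0.32 against a knockout effect of 0.30 ± 0.28 (adjusted p of the difference 0.044). Tmc5 followed the same order, at 19.1 and 14.8 CPM with D.f., 2.15 and 3.01 CPM with RNase III, 3.71 and 3.20 CPM in wild type with D.f., and 3.83 and 7.34 CPM in the knockout. Its PBS libraries of the first set lay at 0.625 and 4.55 CPM, a spread that covers both RNase III libraries.

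Fmnl1, a formin of haematopoietic cells that shapes the actin cytoskeleton, changed less but with little spread. It was at 121 and 115 CPM with D.f., 60.4 and 66.3 CPM with RNase III, 78.1 and 77.9 CPM in wild type with D.f., and 79.3 and 86.6 CPM in the knockout. The RNase III effect was -0.90 ± 0.09, and the knockout effect of 0.09 had an interval of -0.12 to 0.30. Fmnl1 and Cldn2 are the genes of the 4 whose knockout effect lay within 1 log2 unit of 0 over its whole interval.

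Another 3 genes rose with RNase III and showed no called knockout effect, all with knockout intervals within 1 log2 unit of 0. Gria1, a glutamate receptor subunit best known from neurons, was at 3.90 and 5.57 CPM with D.f. and at 39.1 and 23.1 CPM with RNase III. It was at 27.2 and 30 CPM in wild type with D.f., 30.8 and 33.5 CPM in the knockout, and 33.2 to 54.2 CPM in the 4 PBS libraries. The D.f. libraries of the RNase III set were thus the low ones among all 12, and the RNase III effect was 2.72 ± 0.26 against a knockout effect of 0.17 ± 0.24 (adjusted p of the difference 0.049).

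Tppp, which promotes tubulin polymerization, was at 22.1 CPM in both D.f. libraries and 49.5 and 49.7 CPM with RNase III, and at 33.5 and 35.4 CPM in wild type with D.f. and 33.6 and 33.1 CPM in the knockout. Its difference of 1.21 ± 0.12 had an adjusted p of 0.013. Sema3e, a semaphorin that acts on vessels through plexin D1, was at 139 and 127 CPM with D.f. and 225 and 203 CPM with RNase III, and at 223 and 239 CPM in wild type with D.f. and 179 and 175 CPM in the knockout. In Sema3e the knockout libraries were the lower ones, with a knockout effect of -0.38 ± 0.10 that was not called (adjusted p = 0.061).

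For these 7 genes the D.f. group of the RNase III set stood apart from the wild-type D.f. group of the knockout set, although both are B6 wild-type lungs given the extract. On the log2(CPM + 0.5) scale, D.f. minus wild-type D.f. was 2.13 for Tmc5, 1.70 for Ccl20, 1.44 for Cldn2, 0.60 for Fmnl1, -2.49 for Gria1, -0.63 for Tppp and -0.79 for Sema3e. The groups that received an intervention differed by less in each of the 7: RNase III minus knockout was -0.93 for Tmc5, -0.55 for Ccl20, -1.14 for Cldn2, -0.39 for Fmnl1, -0.09 for Gria1, 0.57 for Tppp and 0.27 for Sema3e. Over all 23 genes the gap between the D.f. groups was larger than the gap between the intervention groups in 13 and smaller in 10. These gaps cross the sets, so set and extract response cannot be told apart in them.

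**Figure D2:**
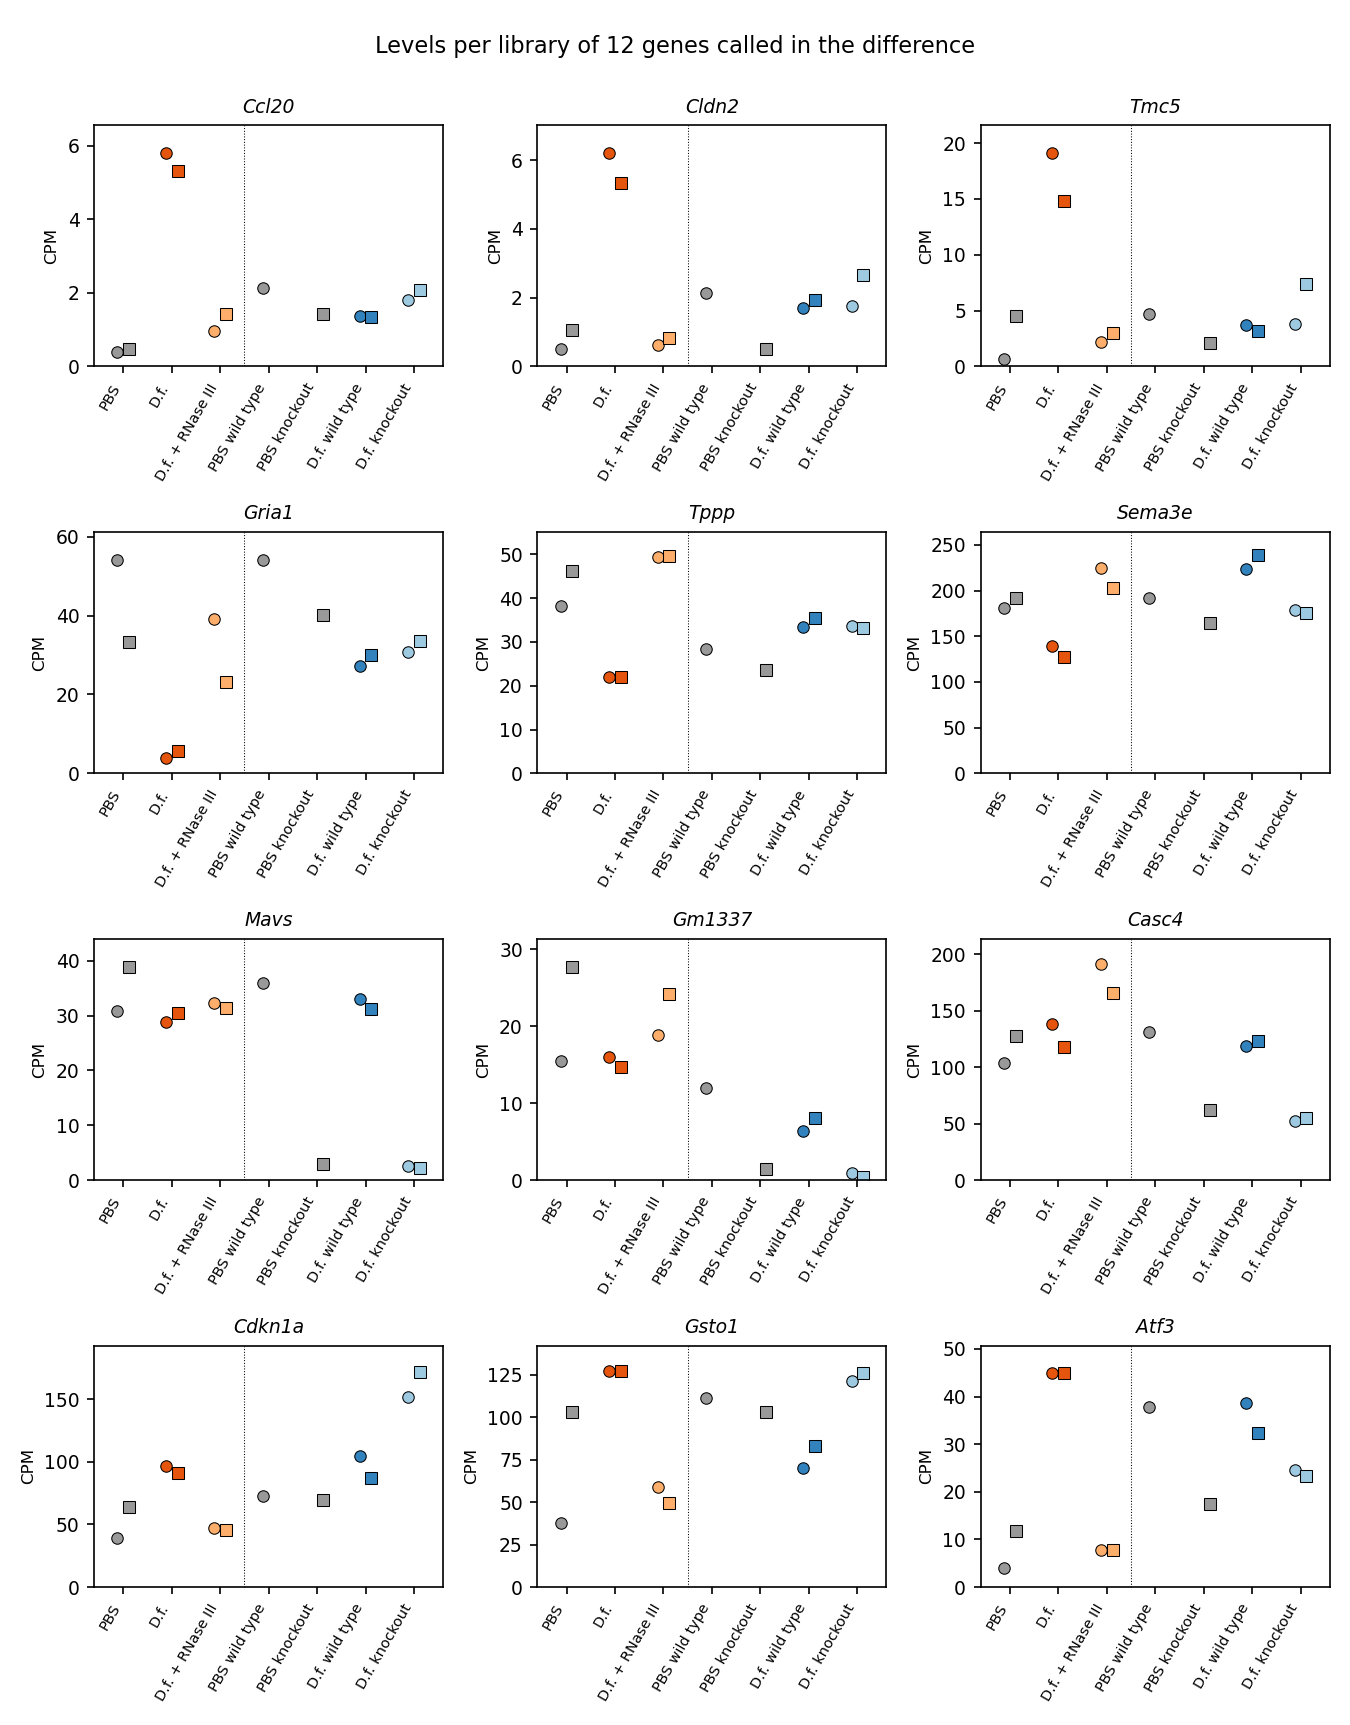
Level of 12 genes with a called difference in each of the 12 libraries (vertical axis, CPM on a linear scale from 0). Circles are odd and squares even replicate numbers, grey marks PBS, and the dotted line separates the RNase III set (left) from the knockout set (right). In the first 6 panels the D.f. libraries of the RNase III set stand apart from the other D.f. libraries, whereas Mavs, Gm1337 and Casc4 are low in all 3 knockout libraries, PBS included.

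Genes that depended on the knockout were Mavs itself and 3 others that fell in the knockout with an RNase III effect within 1 log2 unit of 0: the gene model Gm1337, the phospholipase A2 gene Pla2g4b and the translation initiation factor gene Eif3j. No gene rose in the knockout alone by this definition. Mavs had a knockout effect of -3.72 ± 0.13, an RNase III effect of 0.10 ± 0.10 and a difference of 3.82 ± 0.16 (adjusted p = 8.9e-05). Gm1337 was at 16.0 and 14.7 CPM with D.f., 18.9 and 24.2 CPM with RNase III, 6.37 and 8.14 CPM in wild type with D.f., and 0.881 and 0.389 CPM in the knockout. The 95% interval of its difference was 3.03 to 4.97, which spans that of Mavs (3.45 to 4.19), with an adjusted p of 0.013.

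Pla2g4b, a cytosolic phospholipase that releases fatty acids from membranes, was at 12.9 and 16.8 CPM with D.f. and 15.4 and 14.8 CPM with RNase III, which overlap. It was at 3.80 and 3.95 CPM in wild type with D.f. and 0.933 and 0.777 CPM in the knockout, with a difference of 2.20 ± 0.30 (adjusted p = 0.044). Eif3j, a loosely bound subunit of the initiation factor eIF3, was at 14.1 and 13.1 CPM with D.f., 14.8 and 15.9 CPM with RNase III, 7.23 and 6.33 CPM in wild type with D.f., and 1.71 and 1.70 CPM in the knockout, with a difference of 2.16 ± 0.22 (adjusted p = 0.015). Eif3j is annotated over Spg11 on the other strand and the strand setting of the counting is not given in the sources used here, so reads of these genes cannot be told apart. Both wild-type D.f. groups counted Pla2g4b, Eif3j and Gm1337 at different levels, by 1.80, 0.96 and 1.04 on the log2 scale, and the tables of the sets list different numbers of genes (33924 and 22609).

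These genes lie near Mavs on chromosome 2. In NCBIM37 (mm9), Mavs is annotated at chr2:131059799-131073761 on the plus strand, Gm1337 at chr2:118524839-118529699 on the minus strand, Pla2g4b at chr2:119853219-119868769, Eif3j at chr2:121854282-121882334 and Casc4, a gene of the class described next, at chr2:121692706-121761956, all 3 on the plus strand. Their starts are 12.5, 11.2, 9.2 and 9.4 Mb before that of Mavs. Of the 22 called genes other than Mavs, 2 lay within 10 Mb of it, a window with 143 of 14280 placed genes (1.00%), and 4 lay within 15 Mb, a window chosen after the data were seen that holds 235 placed genes (1.65%). The knockout effect was called as a fall for 12 genes of the narrower window (8.39%) and 21 of the wider one (8.94%), beside 4.04% over all genes tested. The RNase III effect was called for 16.8% and 15.7% of them, near its share of 17.2% over all genes tested. No called gene other than Tlr3 lay within 15 Mb of Tlr3 on chromosome 8.

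**Figure D3:**
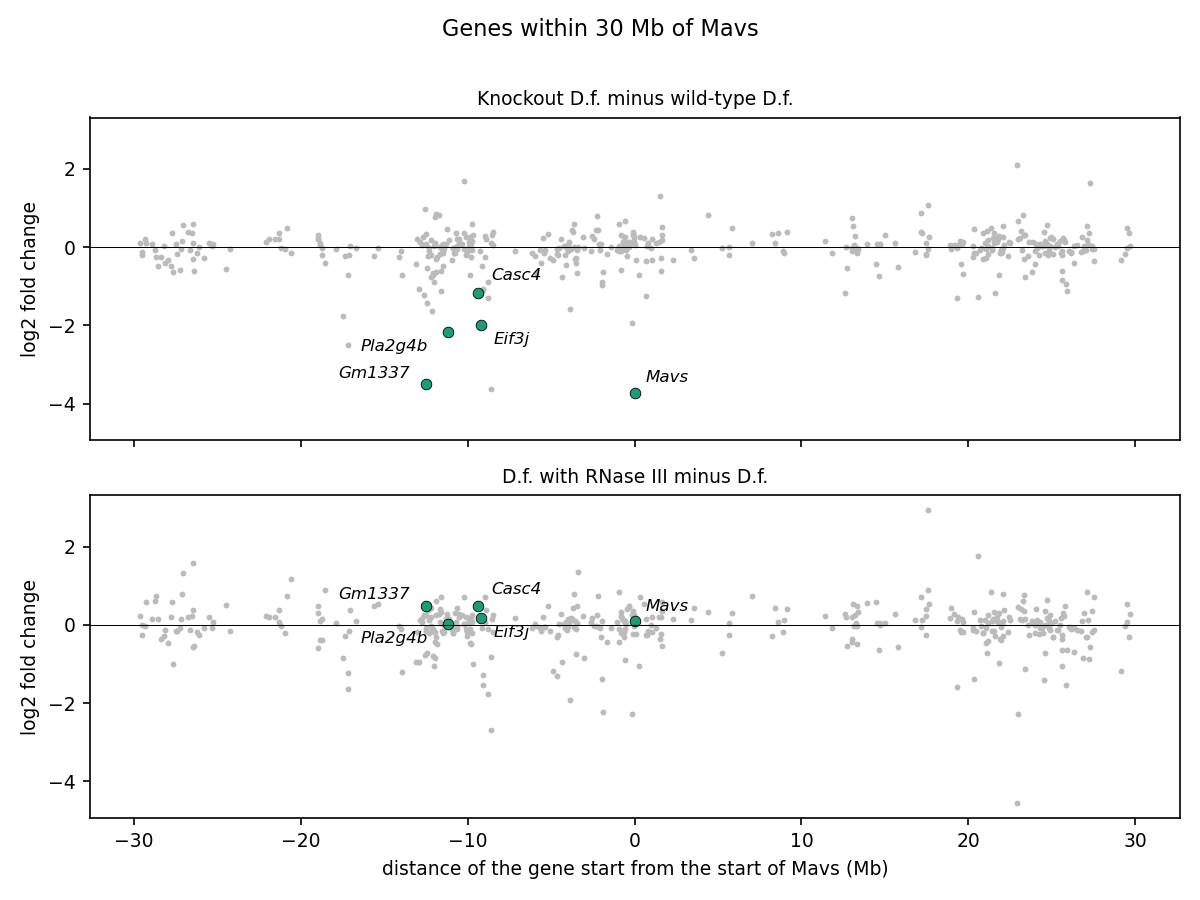
Knockout effect (upper panel) and RNase III effect (lower panel), as log2 fold change, of genes within 30 Mb of Mavs against the distance of their start from that of Mavs in Mb. Green points are genes with a called difference. Gm1337, Pla2g4b, Eif3j and Casc4 lie between 9.2 and 12.5 Mb to one side of Mavs with knockout effects of -1.17 to -3.51, and their RNase III effects range from 0.02 to 0.49.

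The PBS libraries of the knockout set, which did not enter the fit, give a readout without extract. They are 1 library per genotype, so there is no replicate check. In the knockout PBS library, Mavs was at 3.03 CPM against 35.9 CPM in wild type, Gm1337 at 1.42 against 12 CPM, Pla2g4b at 0.867 against 3.93 CPM and Eif3j at 2.04 against 5.06 CPM. All 4 genes that depended on the knockout were thus more than 1 log2 unit lower without D.f., where 236 of 14410 genes tested were (1.64%). Of the 423 genes that fell in both effects with no called difference, 27 were more than 1 log2 unit lower there and 12 more than 1 higher. Over all 14410 genes tested these numbered 236 (1.64%) and 154 (1.07%). By sign alone, 158 of the 423 (37.4%) were on the lower side in the knockout PBS library. The median PBS difference of the 423 was 0.10, beside 0.02 over all genes tested.

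Of 18 genes called in both effects with opposite directions, 9 had no called difference. The other 9 were called in the difference too and form another class. Of these, 6 rose with RNase III and fell in the knockout: Tnn, Atp13a4, Bche, Casc4, Thbs3 and 9030425E11Rik. Tnn, the matrix glycoprotein tenascin N, was at 1.75 and 2.36 CPM with D.f. and 4.53 and 5.08 CPM with RNase III, and at 14.5 and 18.4 CPM in wild type with D.f. and 3.78 and 2.04 CPM in the knockout. The wild-type D.f. groups of the sets were the farthest apart, and the libraries with an intervention lay between them, apart from knockout replicate 6. Its effects were 1.23 ± 0.31 and -2.50 ± 0.29, and the difference was 3.73 ± 0.42 (adjusted p = 0.028).

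Atp13a4, a P5-type ATPase, and Bche, the butyrylcholinesterase gene, were likewise highest, among the 8 libraries, in wild type with D.f. of the knockout set. Atp13a4 rose by 1.00 ± 0.26 with RNase III and fell by 1.72 ± 0.26 in the knockout. Bche was at 7.11 and 6.64 CPM with D.f., 14.7 and 9.35 CPM with RNase III, 24.5 and 30.3 CPM in wild type with D.f., and 9.64 and 9.67 CPM in the knockout. Thbs3, a matricellular thrombospondin, rose by 0.77 ± 0.13 with RNase III and fell by 0.66 ± 0.13 in the knockout. Casc4, also known as Golm2 and coding for a Golgi membrane protein, differed from these: the D.f. groups were alike, at 138 and 118 CPM and at 119 and 123 CPM, and RNase III took it to 191 and 166 CPM and the knockout to 52.8 and 55.0 CPM. In the PBS libraries Casc4 was at 62.0 CPM in the knockout and 131 CPM in wild type, and all 6 genes of this direction were on the lower side in the knockout PBS library, 4 of them by more than 1 log2 unit (1.64% of all genes tested).

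The other 3 fell with RNase III and rose in the knockout: the glutathione transferase gene Gsto1, the cyclin-dependent kinase inhibitor gene Cdkn1a and the glycosyltransferase gene B3gnt3. Cdkn1a, which encodes p21 and is induced by p53 and by stress, was at 97.1 and 91.0 CPM with D.f. and at 105 and 87.2 CPM in wild type with D.f., so that the D.f. groups overlapped. It fell to 47.5 and 45.4 CPM with RNase III and rose to 152 and 172 CPM in the knockout, an RNase III effect of -1.02 ± 0.11 against a knockout effect of 0.75 ± 0.11 (difference -1.77 ± 0.16, adjusted p = 0.012). The knockout and wild-type PBS libraries were at 69.6 and 73.1 CPM, so the higher level was seen with D.f. and not with PBS.

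Gsto1, an omega-class glutathione transferase, was at 127 CPM in both D.f. libraries, 58.6 and 49.6 CPM with RNase III, 70.2 and 82.8 CPM in wild type with D.f., and 121 and 126 CPM in the knockout. Its levels with D.f. alone and in the knockout lay together, above the other pairs, and the difference was -1.93 ± 0.16 (adjusted p = 0.0089). B3gnt3, which extends mucin-type and lymphocyte-homing glycans, was at 35.5 and 32.4 CPM with D.f., 23.4 and 24.9 CPM with RNase III, 16.1 and 13.8 CPM in wild type with D.f., and 27.6 and 30.7 CPM in the knockout. Gsto1 is annotated over Wdr96 and Thbs3 over Mtx1 on the other strand, whose reads cannot be told apart from theirs. Genes or gene models on the other strand are also annotated over Fmnl1, Sema3e, Tppp, Casc4 and 9030425E11Rik, and the same holds for their reads.

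The last 3 genes moved in the same direction by unequal amounts. Atf3, a stress-induced transcription factor that restrains inflammatory genes, was at 44.9 CPM in both D.f. libraries, 7.70 and 7.76 CPM with RNase III, 38.6 and 32.4 CPM in wild type with D.f., and 24.6 and 23.4 CPM in the knockout. The D.f. groups lay 0.34 log2 apart and the intervention groups 1.57, so the sets differed more in the libraries with an intervention. The effects were -2.54 ± 0.12 and -0.57 ± 0.11, with a difference of -1.97 ± 0.16 (adjusted p = 0.0089). PBS levels of Atf3 differed between sets, at 4.03 and 11.8 CPM in the first and 37.8 CPM in wild type and 17.5 CPM in the knockout of the second.

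Tlr3 had an RNase III effect of -1.38 ± 0.19 and a knockout effect of -3.43 ± 0.20 as one of the targeted genes, and the difference was 2.05 ± 0.28 (adjusted p = 0.049). Rab6b, a Golgi GTPase best known from neurons, rose by 0.70 ± 0.20 with RNase III and by 2.90 ± 0.22 in the knockout. Its knockout libraries, at 59.4 and 44.0 CPM against 7.47 and 6.33 CPM in wild type, stood beside PBS levels of 78.6 and 15.5 CPM, and its PBS libraries of the first set were at 16.9 and 71.2 CPM. The wild-type PBS libraries of Rab6b thus spread nearly as widely as the PBS libraries of the genotypes did.

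Gene lists describe how whole programmes compared. The medians over all genes tested were 0.00 for the RNase III effect, 0.01 for the knockout effect and -0.02 for the difference. For the counts below, edgeR called a difference for 0.160% of all genes tested and DESeq2 for 3.70% of the 14130 it tested. An unadjusted p below 0.05 by edgeR was seen for 15.8% of all genes tested. How many members of a list were called in an effect depended on single libraries, as did the counts over all genes tested. Both effects share the spread of 1 fit, so counts can move for an effect whose own libraries were all kept. Without RNase III replicate 5 or 6 the RNase III effect was called for 482 or 930 genes in place of 2481, and without D.f. replicate 4 for 1111. Without wild-type D.f. replicate 3 or 4 the knockout effect was called for 157 or 307 genes in place of 849. Of 48 interferon-stimulated genes, 48 fell with RNase III and 47 in the knockout (10% and 4.04% of all genes tested), with medians of -2.56 and -2.41. The median difference was -0.14, no member had a called difference by edgeR or DESeq2 (1 had an unadjusted p below 0.05), and for 20 its interval lay within 1 log2 unit of 0. With each library left out in turn, 42 to 48 fell with RNase III and 34 to 48 in the knockout, and without knockout replicate 5 edgeR called 3 higher differences. The summed level of the list was 17200 and 22700 CPM with D.f., 3040 and 2870 CPM with RNase III, 19100 and 14700 CPM in wild type with D.f., and 3660 and 2310 CPM in the knockout. The 9 interferon-induced chemokines had medians of -3.63 and -3.78, with 8 members falling in each effect (6 to 9 and 4 to 9 with a library left out, the 4 without wild-type D.f. replicate 3).

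Of 23 nucleic acid sensors, adaptors and kinases, 16 fell with RNase III and 15 in the knockout. Leaving out wild-type D.f. replicate 3 brought the knockout falls to 9. The targeted genes Tlr3 and Mavs were the members whose difference edgeR called, and DESeq2 also called Tlr9, the endosomal receptor of CpG DNA, as lower (-1.59, adjusted p = 0.0022). An unadjusted p below 0.05 was seen for 6 members, and for 13 of 23 the interval of the difference lay within 1 log2 unit of 0. MHC class I presentation genes fell in 19 of 19 cases with RNase III and in 12 with the knockout, with medians of -1.66 and -1.10. Neither edgeR nor DESeq2 called a difference, and 3 of 19 had an unadjusted p below 0.05, beside 15.8% of all genes tested. The falls numbered 10 without either RNase III replicate and 12 without D.f. replicate 4, and in the knockout 3 or 6 without wild-type D.f. replicate 3 or 4. Without knockout replicate 6, edgeR called 4 lower differences, and without replicate 5 it called 1 higher. H2-K1, a classical class I heavy chain, was at 1550 and 1330 CPM with D.f., 536 and 532 CPM with RNase III, 883 and 871 CPM in wild type with D.f., and 553 and 406 CPM in the knockout.

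Interferon-gamma-associated genes had a larger median effect of RNase III (-2.36, 21 of 30 fell) than of the knockout (-1.03, 10 fell). The median difference was -1.12. No member had a called difference by edgeR, 10 had an unadjusted p below 0.05, and DESeq2 called 3 lower and 1 higher. The summed level, 2170 and 2030 CPM with RNase III, was 4780 CPM in knockout replicate 5 and 2150 CPM in replicate 6. Without knockout replicate 5, 26 members fell in the knockout and 1 had a called lower difference, and without replicate 6 there were 12 called lower differences. The RNase III falls numbered 6, 8 or 11 without RNase III replicate 5, RNase III replicate 6 or D.f. replicate 4, and the knockout falls 2 or 6 without wild-type D.f. replicate 3 or 4.

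Of 19 NK cell and cytotoxic genes, 17 fell with RNase III and 6 in the knockout. The falls with RNase III numbered 5 or 4 without RNase III replicate 5 or 6 and 10 without either D.f. replicate, and those in the knockout 1 without either wild-type D.f. replicate and 11 without knockout replicate 5. No difference was called by edgeR, 7 had an unadjusted p below 0.05, and DESeq2 called 2 lower, Cd244 and Il2rb. The 24 T cell genes had medians of -1.01 and -0.87, with 19 and 7 falling. Of these genes 1 or 4 fell with RNase III without RNase III replicate 5 or 6, and 11 or 7 without D.f. replicate 3 or 4. Leaving out either wild-type D.f. replicate left 1 fall in the knockout. Neither edgeR nor DESeq2 called a difference for a T cell gene, and 1 had an unadjusted p below 0.05. In whole lung, fewer cells of a type and less RNA per cell cannot be told apart.

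The NF-kB pathway drives many inflammatory genes and induces its own inhibitors. Of 19 NF-kB subunits and feedback inhibitors, 15 fell with RNase III and 0 in the knockout, with medians of -0.79 and -0.34 and 18 of 19 differences below 0. In the knockout effect 8 of 19 had an unadjusted p below 0.05 (20.4% of all genes tested), and DESeq2 called 2 falls (4.95% of all genes tested). Without RNase III replicate 5 or 6 the falls with RNase III numbered 2 or 6, and without D.f. replicate 3, 10. The knockout falls numbered 2 without either D.f. replicate and 3 without knockout replicate 6. No difference was called by edgeR, 6 had an unadjusted p below 0.05 and 2 were called by DESeq2, while without knockout replicate 5 edgeR called 3 lower. Bcl3, an atypical IkB protein, was at 75.5 and 63.5 CPM with D.f., 20.4 and 32.2 CPM with RNase III, 39.2 and 29.3 CPM in wild type with D.f., and 27.4 and 28.1 CPM in the knockout. Its libraries with an intervention reached similar levels from different D.f. levels.

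Of 21 neutrophil chemokines and acute cytokines, 13 fell with RNase III and 4 in the knockout. Ccl20 was the member whose difference edgeR called, DESeq2 called Ccl20 and Tnf, and 5 of 21 had an unadjusted p below 0.05 (15.8% of all genes tested). Without RNase III replicate 5 or 6, 5 or 6 fell with RNase III, and without D.f. replicate 3, 8. The calls of a fall in the knockout did not hold once an RNase III library or a wild-type D.f. library was left out. The median knockout effect of the list stayed at -0.84 without either RNase III library, which are not part of that effect. It was -0.68 or -0.90 without wild-type D.f. replicate 3 or 4. Il6, a pyrogenic cytokine, was at 10.1 and 7.18 CPM with D.f. and 0.792 and 0.601 CPM with RNase III, and at 2.66 and 1.16 CPM in wild type with D.f. and 0.466 and 0.972 CPM in the knockout. It fell by 3.63 ± 0.49 with RNase III (adjusted p = 0.0021), while its knockout effect of -1.42 ± 0.51 and its difference of -2.21 ± 0.71 were not called (adjusted p = 0.15 and 0.19). Tnf, the tumour necrosis factor gene, was at 20.9 and 17.5 CPM with D.f., 2.38 and 2.90 CPM with RNase III, 11.2 and 7.38 CPM in wild type with D.f., and 2.69 and 5 CPM in the knockout, with a difference of -1.59 ± 0.44 (adjusted p = 0.16 by edgeR and 0.021 by DESeq2). The neutrophil chemokine Cxcl1 had effects of -1.86 ± 0.57 and -1.01 ± 0.66, neither called. The eosinophil chemokine Ccl11 (-1.90 ± 0.63 and -0.44 ± 0.58) and the epithelial alarmin Il33 (-0.41 ± 0.15 and 0.03 ± 0.15) were not called in either effect or in the difference.

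Neutrophil genes had a median RNase III effect of -0.89 and a median knockout effect of 0.21, with 4 of 15 falling with RNase III and 0 in the knockout. All 15 differences were below 0, with a median of -1.56. None was called by edgeR, 5 had an unadjusted p below 0.05 and DESeq2 called 2. In the knockout effect 1 had an unadjusted p below 0.05 and DESeq2 called 1. Their summed level was 2130 and 1230 CPM with D.f., 930 and 1060 CPM with RNase III, 1670 and 1100 CPM in wild type with D.f., and 521 and 1620 CPM in the knockout. Without knockout replicate 5, 6 of the 15 had a called lower difference and 2 rose in the knockout, and without replicate 6 none had a called difference and 3 fell in the knockout. Without either RNase III replicate, 1 fell with RNase III. Saa3, an acute phase protein of lung epithelium, had an RNase III effect of -1.38 ± 0.94 and a knockout effect of -1.13 ± 0.94, neither called, and its difference turned from -0.25 to 3.24 (adjusted p = 0.0061) without knockout replicate 6 and was -1.18 without replicate 5. Ifnb1 and Ifng, the genes of interferon beta and gamma, had too few reads to be tested, with highest levels of 0.446 and 1.83 CPM, both in D.f. replicate 4.

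**Figure D4:**
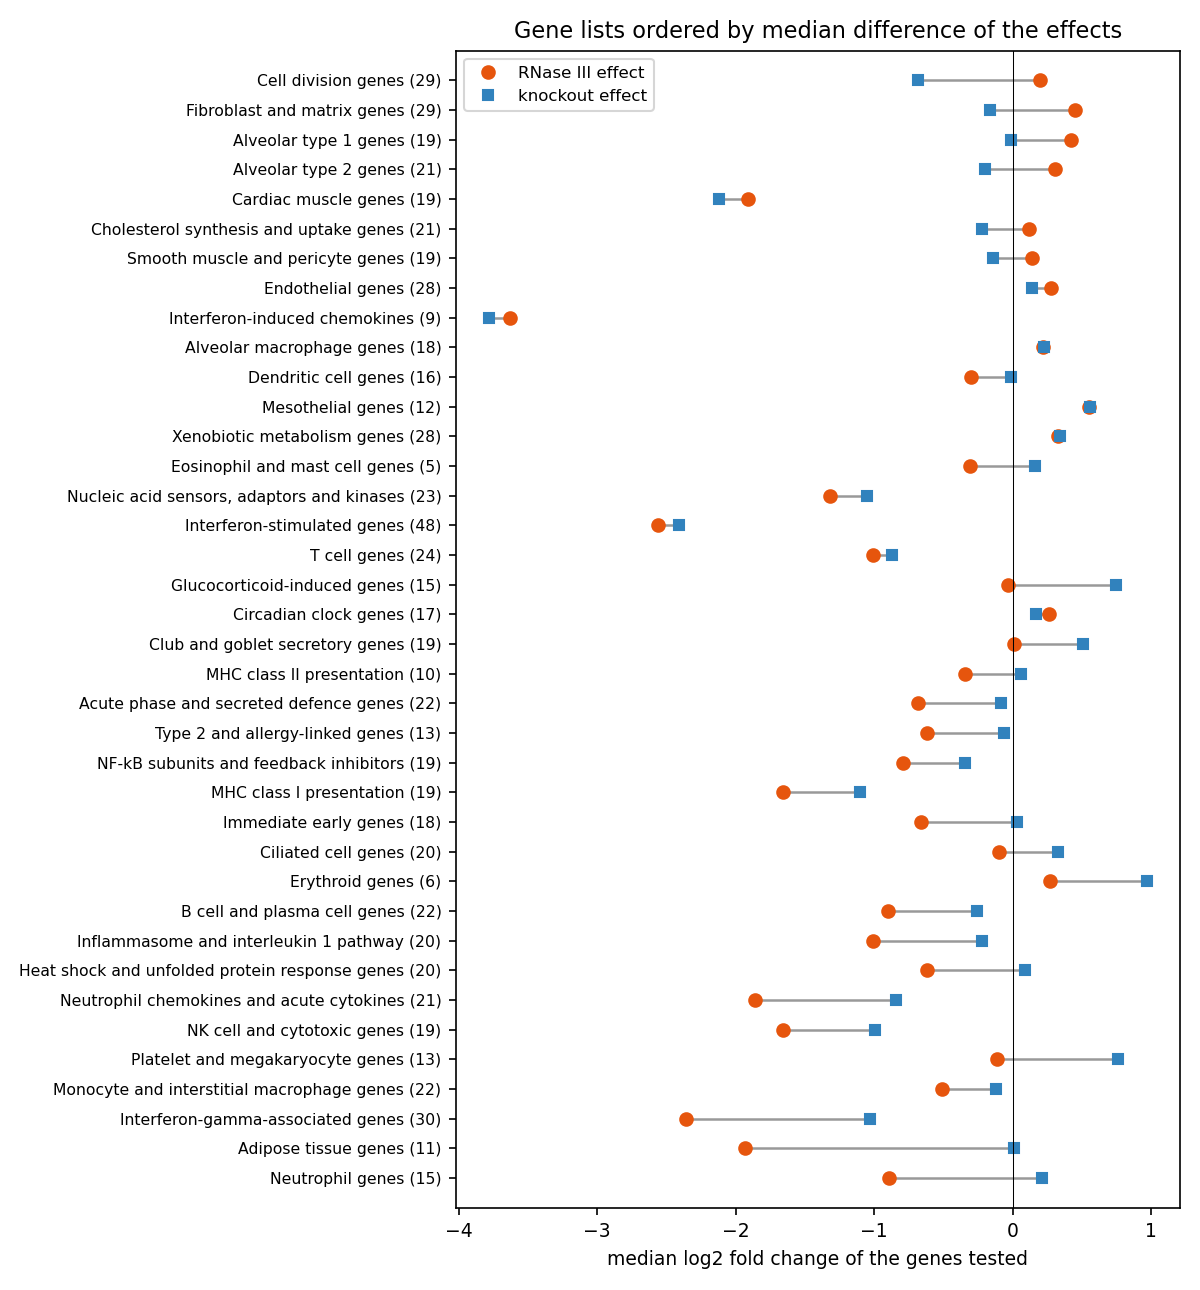
Median RNase III effect (circles) and median knockout effect (squares) of 38 gene lists, as log2 fold change, with the number of genes tested in brackets. Lists are ordered by the median difference of their members, from lowest at the bottom. Interferon-stimulated genes lie at -2.56 and -2.41, neutrophil genes at the bottom of the order, and cell division and fibroblast genes at the top.

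Stress response genes all lay on one side of 0 in the difference. Of 20 heat shock and unfolded protein response genes, 9 fell with RNase III, while 1 fell and 1 rose in the knockout. All 20 differences were below 0, with a median of -0.73 beside -0.02 over all genes tested. Atf3 was the only one called by edgeR (0.160% of all genes tested), and DESeq2 called 9 (3.70% of the genes it tested). Without either RNase III replicate, 2 fell with RNase III and edgeR called no difference. Ddit3, the stress factor CHOP, was at 43.3 and 32.9 CPM with D.f., 22.1 and 18.7 CPM with RNase III, 20.4 and 19.9 CPM in wild type with D.f., and 22.3 and 20.1 CPM in the knockout, so that only the D.f. libraries of the RNase III set were high. Trib3, a pseudokinase induced by the same pathway, fell by 0.71 ± 0.16 with RNase III and was at much higher levels throughout the knockout set (15.4 to 21.5 CPM against 3.17 to 6.06 CPM with D.f. in the RNase III set). Chac1, a glutathione-degrading enzyme of this response, rose by 0.86 ± 0.17 in the knockout and lies 11.9 Mb before Mavs.

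Fibroblast and matrix genes moved the other way. With RNase III 14 of 29 rose and 0 fell (7.18% of all genes tested rose), in the knockout 0 rose and 6 fell, and 27 of 29 differences were above 0 with a median of 0.76. The rises with RNase III numbered 8 or 0 without D.f. replicate 3 or 4, and 0 or 12 without RNase III replicate 5 or 6. The knockout falls numbered 0 or 1 without wild-type D.f. replicate 3 or 4 and 3 without knockout replicate 6. Col6a3, a chain of the microfibrillar collagen VI, was at 312 and 300 CPM with D.f., 619 and 478 CPM with RNase III, 648 and 598 CPM in wild type with D.f., and 551 and 446 CPM in the knockout. Mfap4, an elastic fibre protein, was at 227 and 204 CPM with D.f., 470 and 294 CPM with RNase III, 546 and 798 CPM in wild type with D.f., and 304 and 273 CPM in the knockout. It rose by 0.83 ± 0.24 and fell by 1.22 ± 0.24, and its difference of 2.05 ± 0.33 was not called (adjusted p = 0.066). Col5a1, a fibrillar collagen chain, fell by 0.60 ± 0.09 in the knockout, with an RNase III effect of 0.21 ± 0.09 that was not called.

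No fibroblast gene had a called difference by edgeR, while 22 of 29 had an unadjusted p below 0.05 (15.8% of all genes tested) and DESeq2 called 16, all higher. Without knockout replicate 5 edgeR called 11, and without replicate 6 none. The summed level of the list was lowest with D.f. in the RNase III set, at 6130 and 6850 CPM, against 9660 and 7530 CPM with RNase III, 11600 and 12300 CPM in wild type with D.f., 9620 and 8590 CPM in the knockout, and 7960 to 10200 CPM in the 4 PBS libraries. Alveolar type 1 genes had a median difference of 0.38, with 18 of 19 above 0. Sema3e was the member called by edgeR, DESeq2 called 5 higher and 7 had an unadjusted p below 0.05. Cell division genes had medians of 0.20 and -0.68, with 7 of 29 falling in the knockout (1 or 3 without wild-type D.f. replicate 3 or 4, and 3 without knockout replicate 5). No difference was called by edgeR, 15 had an unadjusted p below 0.05 and DESeq2 called 4, all higher. Among them Bub1b, a spindle checkpoint kinase, fell by 1.22 ± 0.17 in the knockout and lies 12.6 Mb before Mavs, and Mki67 fell by 1.00 ± 0.20.

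Genes of the cardiac muscle and adipose tissue lists also moved, and Fabp4 of the adipose list is also in the alveolar macrophage list. Of 19 cardiac muscle genes, 15 fell with RNase III and 13 in the knockout. Without RNase III replicate 5 or 6, 0 or 2 fell with RNase III and 5 in the knockout, without D.f. replicate 4, 5 fell with RNase III, and without wild-type D.f. replicate 3 or 4, 3 or 2 fell in the knockout. EdgeR called no difference, DESeq2 called Ankrd1 lower and 3 of 19 had an unadjusted p below 0.05, beside 15.8% of all genes tested. The summed cardiac level was 709 and 1310 CPM with D.f., 303 and 278 CPM with RNase III, 532 and 787 CPM in wild type with D.f., 158 and 243 CPM in the knockout, and 179 to 1720 CPM with PBS. Of 11 adipose genes, 6 fell with RNase III and 2 rose in the knockout. Without either RNase III replicate 2 fell with RNase III, and without either wild-type D.f. replicate none rose in the knockout. DESeq2 called 6 differences lower and 1 higher, edgeR none, and 8 had an unadjusted p below 0.05. Cfd, the adipsin gene, was at 30.4 and 44.0 CPM with D.f. and 3.28 and 1.86 CPM with RNase III, but at 0.227 and 81.7 CPM in the PBS libraries of that set, and the adipokine gene Adipoq ranged from 0.328 to 7.85 CPM over the 8 D.f. libraries. Their part in the results was not tested.

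**Figure D5:**
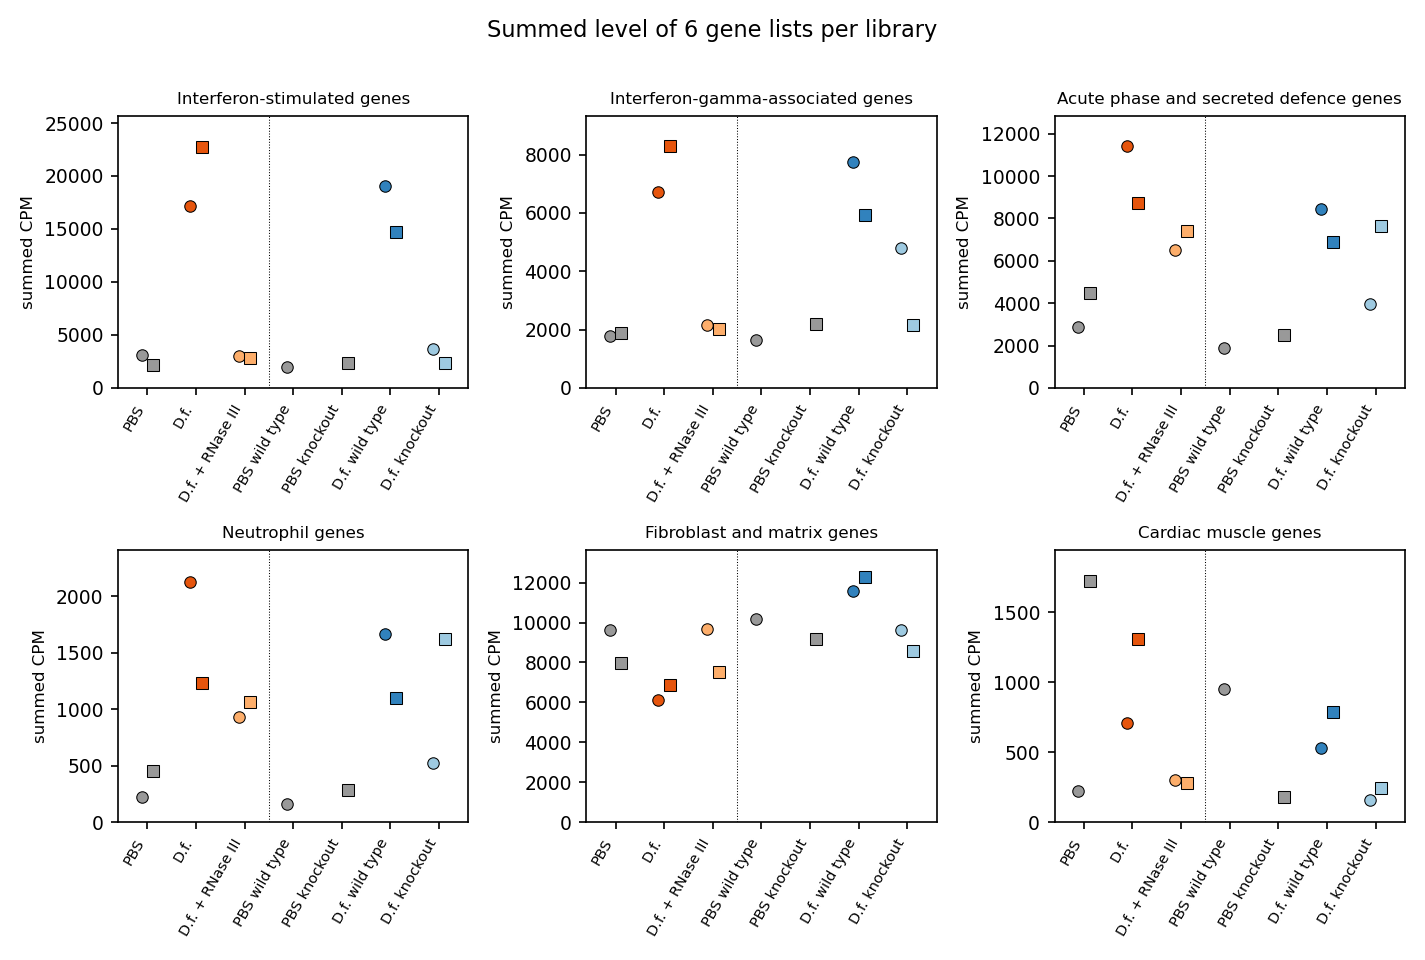
Summed level (vertical axis, CPM on a linear scale from 0) of 6 gene lists in each of the 12 libraries, with circles for odd and squares for even replicate numbers, grey for PBS and a dotted line between the sets. Interferon-stimulated genes are low in all 4 libraries with an intervention, interferon-gamma-associated, acute phase and neutrophil genes differ between the knockout D.f. replicates, fibroblast genes are lowest with D.f. in the RNase III set, and cardiac genes vary among PBS libraries.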

How the data were processed

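RNA from whole lung was sequenced as 100-base single-end reads from TruSeq libraries, per the labels' protocols. The authors deposited unnormalized read counts by gene in a table for each library. TopHat2 2.0.8b, HTSeq, bcl2fastq and mm9 are named in the submitters' processing notes; for the counting, annotation and strand setting are not given here. Lines of unassigned reads were left out, and 23.5% to 27.6% of the reads in each D.f. table were assigned to genes.

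The 8 D.f. libraries were fitted in R 4.3.3 with edgeR 4.0.16 (TMM, glmQLFit, glmQLFTest, 1 mean per group, 4 residual degrees of freedom), over shared symbols that passed filterByExpr in each set. P-values were adjusted over 14410 genes by Benjamini-Hochberg, with a threshold of 0.05. Intervals are 95%, errors SE, and CPM levels TMM-scaled over 12 libraries. A gene is RNase III only or knockout only where the difference and that effect were called and the other effect was not. Alternatives were other normalizations and filters, DESeq2 1.42.0, all 12 libraries, a replicate block and leaving out each library. The fit was first tested on 5 simulated data sets with 200 changed genes each. It called 44.8% of 2-fold, 88.7% of 4-fold and 95.8% of 8-fold differences. Of its calls 7.63% were false, above the share that the threshold of 0.05 stands for.

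Named genes were up to 5 per class with the largest difference, up to 8 that moved alike with the narrowest intervals, up to 4 per list described and 11 chosen genes; Gm1337, Casc4, Thbs3, 9030425E11Rik and B3gnt3 were added as the rest of the 23. Members and lists were chosen with earlier results of these data known. Nothing says that replicates are separate animals, so p-values measure the spread between libraries, which may be technical. Positions are from GENCODE mouse release 1 (NCBIM37), which placed 14280 genes, and promoters from RefSeq GRCm38.p6.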

Additional observations from a re-analysis of the deposited data

How the results depend on the processing

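The difference, called for 23 genes (14 higher, 9 lower), was called for 23 or 24 with other size factors, normalization within each set, no TMM, or a filter over the 8 libraries together. Without a filter on low counts it was called for 50 (26 higher, 24 lower; RNase III only 21, knockout only 12, opposite 14). DESeq2 called 523 (265 higher, 258 lower; RNase III only 339, knockout only 89, opposite 29, unequal 37). All 12 libraries in the fit gave 1 (1 higher, 0 lower), an RNase III effect of 1622 genes, a knockout effect of 463, and classes of 0 RNase III only, 1 knockout only, 0 opposite, 0 unequal and 354 that moved alike. The fit on the 4 libraries of its own set called the knockout effect for 340 genes. The cause was not tested.

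Replicate numbers are shared across sets by the titles only. Deviations of same-numbered libraries correlated at 0.05 and 0.16. With a replicate block the difference was called for 145 genes (85 higher, 60 lower), the knockout effect for 438, RNase III only for 111, knockout only for 12, unequal for 5 and both alike for 352.

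Leaving out 1 library at a time gave 1 to 979 called differences (1 to 507 higher, 0 to 472 lower), an RNase III effect of 482 to 3391 genes, a knockout effect of 157 to 1134, and classes of 0 to 602 RNase III only, 1 to 172 knockout only, 0 to 121 opposite, 0 to 28 unequal and 130 to 580 moving alike. Of the values of named genes under the alternatives, 2502 kept direction and side of the threshold, 147 gained a call, 148 lost one and 1 reversed: Saa3 without knockout replicate 6, at 3.24 (-1.18 without replicate 5).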
